A study of Mus musculus with 6 samples.

Results

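Secreted Wnt antagonists are extracellular proteins that stop Wnt ligands from signalling, and 10 of their genes were followed here: Wif1, Notum, Dkk2, Dkk3, Dkk4, Sfrp1, Sfrp2, Sfrp4, Sfrp5 and Frzb. They were chosen by gene symbol, with earlier results of these data known, as were the 16 gene lists set beside them. Counts of called genes given beside the share over all genes are therefore descriptions. All 10 members were found among the 53700 gene rows of the count table. RNA of bulk colon tumours was sequenced in 2 groups of 3. The APC-WT mice kept endogenous Tcf7l2 expression, had eaten doxycycline for 10 days and were cachectic, that is, wasting with advanced cancer. The APC-KI mice had been fed the drug for 6 weeks, which in this genotype switches off Tcf7l2 systemically, and had recovered. Both sets of mice carried colon tumours and received food pellets with 100 mg/kg doxycycline. The effects of genotype, of the length of doxycycline feeding and of wasting cannot be told apart, because each APC-KI mouse differs from each APC-WT mouse in all of them. The labels name neither the construct nor the promoter that represses Tcf7l2, nor the age or sex of the animals. Sex, read from the counts, was partly mixed with group as well.

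Wnt ligands are lipid-modified proteins that bind a Frizzled receptor together with LRP5 or LRP6, and the signal frees beta-catenin to act with TCF factors such as Tcf7l2 on target genes. Antagonists act at several points outside the cell. WIF1 and the secreted Frizzled-related proteins (SFRPs, which include FRZB) bind Wnt ligands, Dickkopf proteins of the DKK1, DKK2 and DKK4 type occupy LRP5 and LRP6, and NOTUM is an esterase that removes the lipid from the ligand. In the intestine Wnt signalling maintains the crypt stem cells, and some antagonists, among them Notum, are known as targets of beta-catenin in tumour epithelium, while SFRPs are known largely from the stroma.

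Promoters are 1 of the places where TCF factors bind, beside introns and distant enhancers that were not examined here. Those of 1 antagonist that fell, 1 that did not pass the test and 1 that rose are shown. RefSeq (build GRCm38.p6) held a promoter for 5 of the 10 genes. Each line is the 250 bases before the transcription start, 5′ to 3′ on the strand of the gene. Capitals mark the letters of a TATA box (TATAAA) or a GC box (GGGCGG), read on both strands; no marked motif overlaps another.
Wif1, chr10:121033754-121034003, plus strand: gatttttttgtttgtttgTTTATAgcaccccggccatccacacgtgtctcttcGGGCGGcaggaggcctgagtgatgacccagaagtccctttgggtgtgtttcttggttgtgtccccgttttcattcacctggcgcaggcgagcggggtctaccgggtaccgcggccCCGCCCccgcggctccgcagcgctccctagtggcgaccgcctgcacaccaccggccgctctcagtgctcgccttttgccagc
Dkk2, chr3:132085042-132085291, plus strand: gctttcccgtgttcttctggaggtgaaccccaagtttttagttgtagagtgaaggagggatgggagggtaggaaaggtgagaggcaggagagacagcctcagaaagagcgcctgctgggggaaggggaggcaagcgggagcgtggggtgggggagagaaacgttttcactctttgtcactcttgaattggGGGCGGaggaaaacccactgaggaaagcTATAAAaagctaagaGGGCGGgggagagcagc
Frzb, chr2:80447397-80447646, minus strand: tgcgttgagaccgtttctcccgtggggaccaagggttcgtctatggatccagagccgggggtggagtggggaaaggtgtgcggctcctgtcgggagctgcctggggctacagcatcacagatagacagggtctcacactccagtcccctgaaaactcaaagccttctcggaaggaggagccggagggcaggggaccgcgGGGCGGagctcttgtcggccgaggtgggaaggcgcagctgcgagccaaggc

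The TCF/LEF motif, searched as CTTTGAT and CTTTGAA on both strands, was not in these letters for Wif1, Dkk2, Frzb, Sfrp2 or Sfrp5. It stood in 7.48% of 32851 RefSeq promoter windows of the same length. A GC box was found in 4 of the 5 windows, all but Sfrp2, against 32.7% of all windows. Dkk2 had a TATA box on the gene's strand, beginning 32 bases before the start, and Wif1 had the same letters on the opposite strand 232 bases before it. TATA boxes stood in 12.4% of all windows. These matches describe the letters in this window alone.

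Libraries held between 51777342 and 63921108 counts. Tcf7l2 itself stood at 44.1, 43.8 and 35.6 CPM (counts scaled to library size with TMM factors, which correct for differences in RNA composition) in APC-WT and at 4.48, 6.91 and 5.34 CPM in APC-KI. Its log2 change was −2.89 ± 0.19 (SE, edgeR adjusted p = 0.00124), so the repressed gene went with the labels. Transcripts of Y-linked genes were counted in APC-WT replicates 1 and 2 alone (19164 and 16055 counts). The other 4 libraries, called Y-negative from here on, had 0, which allows up to 3 counts in each. Xist, an RNA of female cells, stood at 0.33 and 0.563 CPM in APC-WT replicates 1 and 2. It stood at 2221 CPM in APC-WT replicate 3 and at 2194, 2085 and 2118 CPM in APC-KI. The labels do not state the animals' sex, but these counts mark APC-WT replicates 1 and 2 as male and the Y-negative libraries as female. Sex is thus partly mixed with group. Epithelial markers were high in every library, with summed levels of 7861 to 9051 CPM in APC-WT against 9987 to 11920 CPM in APC-KI.

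The antagonists went in opposite directions. Wif1, Notum and Dkk3 fell in APC-KI tumours, by 4.14-fold, 6.23-fold and 1.49-fold, and Sfrp1 and Frzb rose 5.54-fold and 3.99-fold. Of the 9 members that passed the filter on low counts, 3 were lower and 2 higher at an adjusted p under 0.05 (edgeR's quasi-likelihood test, Benjamini-Hochberg over 19127 genes), while Dkk2, Sfrp2, Sfrp4 and Sfrp5 did not pass. Over all genes tested 20.1% were called, 7.63% as lower and 12.5% as higher. Among the 9 tested members the 2 groups did not overlap for 4 that were lower (Wif1, Notum, Dkk2 and Dkk3), against 21.5% of all genes tested. Nor did they overlap for 4 that were higher (Sfrp1, Sfrp4, Sfrp5 and Frzb), against 23%. The median log2 change of the 9 members was 0.55, and that of all genes tested −0.02. The groups have 3 libraries each, so an exact two-sided permutation test cannot go below p = 0.1. In bulk tumours fewer cells of a type and less RNA per cell cannot be told apart.

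**Figure D1:**
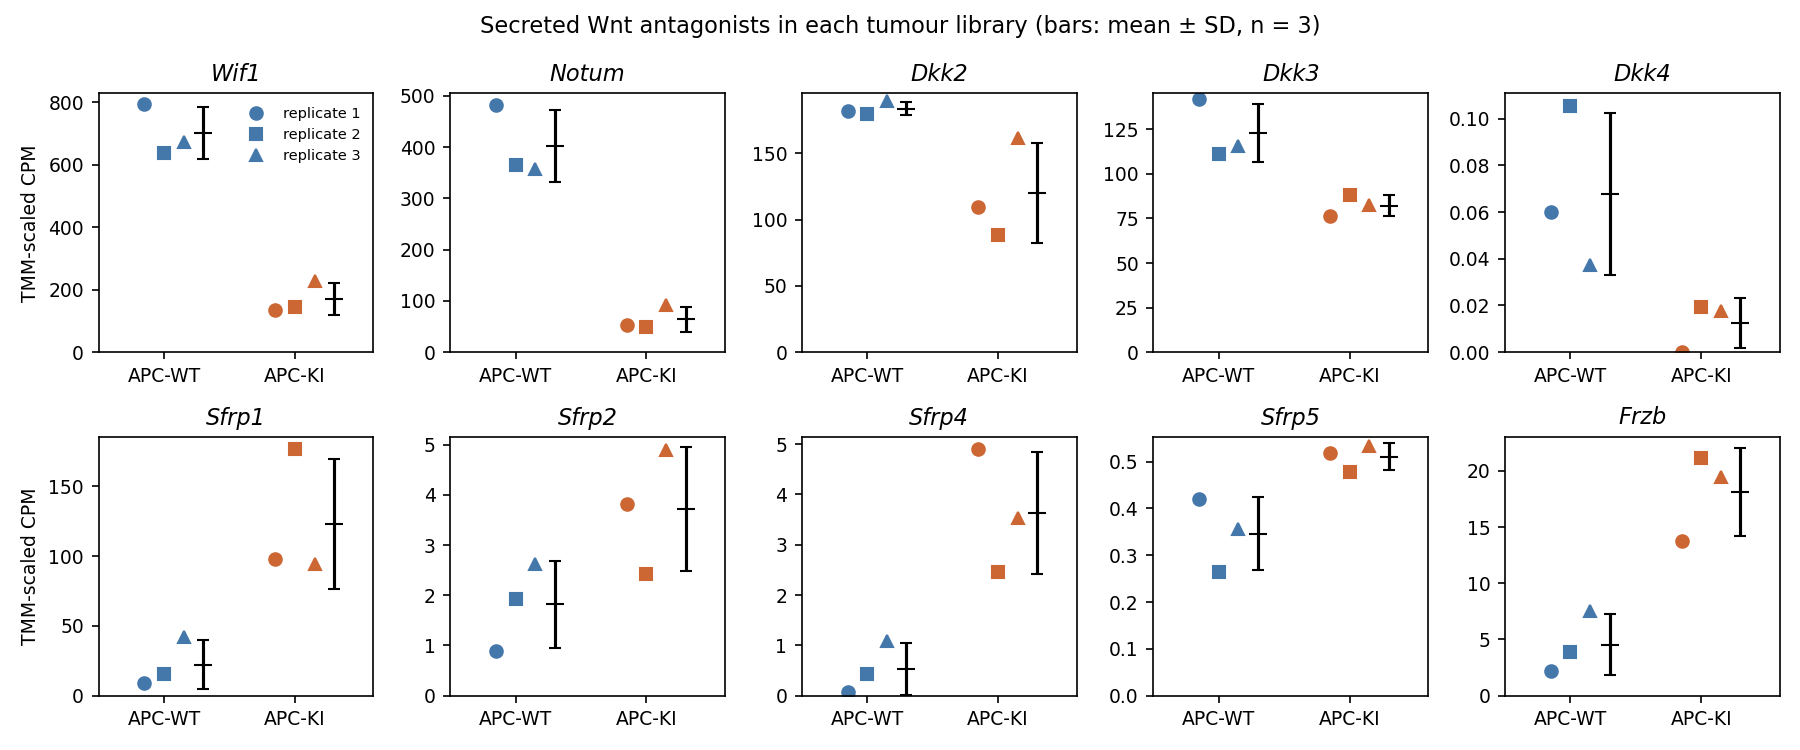
Level of each antagonist in every library, in TMM-scaled CPM on linear axes that start at 0; symbols give the replicate number and bars the mean ± SD (n = 3). Wif1, Notum, Dkk2 and Dkk3 were lower in all 3 APC-KI libraries than in any APC-WT library, and Sfrp1, Sfrp4, Sfrp5 and Frzb were higher. Dkk4, with 12 counts in APC-WT and 2 in APC-KI in all, was lower too and was not tested.

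Wif1, the Wnt inhibitory factor that holds Wnt ligands through its WIF domain, stood at 794, 638 and 672 CPM in APC-WT replicates 1 to 3 and at 135, 144 and 229 CPM in APC-KI replicates 1 to 3. The lowest APC-WT library lay far above the highest APC-KI library, which was replicate 3. Its log2 change was −2.05 ± 0.22 (SE, edgeR adjusted p = 0.00519), and 230 of the 19127 genes tested had a more negative change. Per 1000 CPM of epithelial markers Wif1 stood at 101, 77.2 and 74.3 CPM in APC-WT against 11.3, 12.6 and 22.9 CPM in APC-KI. The epithelial marker sum was itself higher in APC-KI, so this ratio was bound to fall with the gene. With only the 4 Y-negative libraries, which leaves 1 APC-WT library assumed to vary like the APC-KI ones, the log2 change was −1.99 and did not pass (adjusted p = 0.0717).

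Notum, the extracellular esterase that strips the lipid from Wnt ligands, stood at 483, 365 and 357 CPM in APC-WT against 52.5, 48.5 and 92.4 CPM in APC-KI. APC-WT replicate 1 was the highest and APC-KI replicate 3 the highest of its group, as for Wif1, and the groups did not overlap. The log2 change of −2.64 ± 0.28 (SE, edgeR adjusted p = 0.00532) was exceeded in the negative direction by 147 genes. Per 1000 CPM of epithelial markers, whose sum was higher in APC-KI, Notum stood at 61.4, 44.2 and 39.4 CPM in APC-WT against 4.41, 4.26 and 9.25 CPM in APC-KI. The GENCODE M21 annotation places the antisense gene Notumos across 708 exon bases of Notum, and since no source used here gives the strand setting of the counting, the split of reads between them is uncertain. Notumos was counted at 25.9, 15.8 and 18.2 CPM in APC-WT against 3.00, 2.47 and 5.55 CPM in APC-KI, also without overlap. Over the 4 Y-negative libraries Notum had a log2 change of −2.47 (adjusted p = 0.082).

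Of the Dickkopf genes, Dkk3, a divergent member of the family whose tie to LRP receptors is unclear, stood at 142, 111 and 116 CPM in APC-WT against 76.3, 87.9 and 82.5 CPM in APC-KI. It fell by 0.58 on the log2 scale (SE 0.11, edgeR adjusted p = 0.0177). Dkk2, which binds LRP5 and LRP6, stood at 182, 180.1 and 189.9 CPM in APC-WT against 109, 88.7 and 162 CPM in APC-KI. The APC-WT libraries of Dkk2 lay within 1.05-fold of each other, while the APC-KI libraries spread over 1.82-fold with replicate 3 closest to APC-WT. Its log2 change of −0.62 had a 95% interval of −1.11 to −0.12 and did not pass after adjustment (edgeR adjusted p = 0.0797). Without APC-KI replicate 3 the change was −0.90 (adjusted p = 0.00587), and DESeq2 called it with all libraries (adjusted p = 0.0298). The call of Dkk3 was lost without APC-KI replicate 1 (adjusted p = 0.0694), with the replicate number as a block (0.0634), over the Y-negative libraries (0.108) and when the presence of Y-linked counts entered as a covariate (0.141).

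Dkk4 was close to absent, with 12 counts in the 3 APC-WT libraries together and 2 in the 3 APC-KI libraries. Its count ratio was 0.184 (APC-KI over APC-WT), with an exact binomial 95% interval of 0.02 to 0.826 that covers counting error only. It did not reach the filter on low counts and was not tested.

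**Figure D2:**
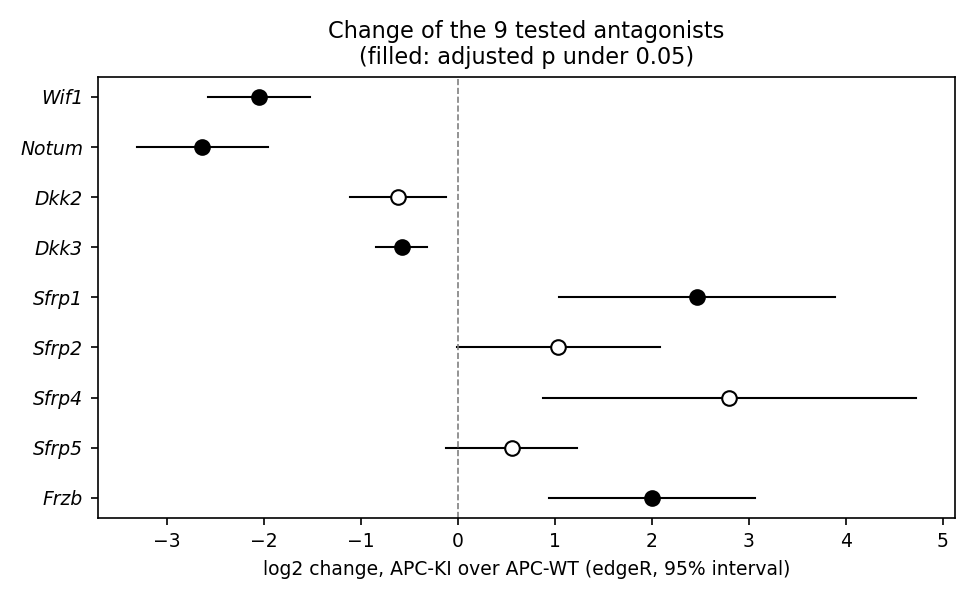
Log2 change (APC-KI over APC-WT, edgeR) of the 9 antagonists tested, with 95% intervals; filled points passed at an adjusted p under 0.05. Wif1, Notum and Dkk3 lie below 0, Sfrp1 and Frzb above 0, and the open points are Dkk2, Sfrp2, Sfrp4 and Sfrp5.

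Sfrp1, which carries a cysteine-rich domain like that of the Frizzled receptors and binds Wnt ligands with it, stood at 9.24, 15.2 and 42.2 CPM in APC-WT against 97.6, 177 and 94.5 CPM in APC-KI. The groups did not overlap, but APC-WT varied 4.57-fold, from replicate 1 at the low end to replicate 3 at the high end. Its log2 change was 2.47 ± 0.59 (SE, edgeR adjusted p = 0.0339). Frzb, also known as the third SFRP, had the same order of libraries in APC-WT, at 2.22, 3.90 and 7.52 CPM, and stood at 13.8, 21.2 and 19.5 CPM in APC-KI. Its log2 change was 2.00 ± 0.44 (SE, edgeR adjusted p = 0.0271).

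The calls of Sfrp1 and Frzb were both lost without APC-WT replicate 2 (adjusted p = 0.11 and 0.0967), APC-KI replicate 1 (0.0775 and 0.062) or APC-KI replicate 2 (0.0918 and 0.0804). That of Sfrp1 was also lost without APC-WT replicate 1 (0.0685) and with the replicate block (0.057). Over the 4 Y-negative libraries the log2 changes were 1.54 for Sfrp1 and 1.27 for Frzb (adjusted p = 0.203 and 0.1), and 1.54 and 1.27 when the presence of Y-linked counts was a covariate (0.172 and 0.144). With no filter on low counts the adjusted p was 0.134 and 0.0515.

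Sfrp4, a family member expressed by mesenchymal cells, was rare, at 0.075, 0.422 and 1.08 CPM in APC-WT against 4.90, 2.47 and 3.52 CPM in APC-KI. Its log2 change of 2.80 was the highest of the members, but APC-WT spread over 14.5-fold and the test was not passed (SE 0.80, edgeR adjusted p = 0.0536). It passed with DESeq2 (0.00063), with limma-voom (0.0299), without APC-WT replicate 1 (log2 change 2.27, 0.0444) and without APC-WT replicate 3 (log2 change 3.89, 0.0204). Sfrp2, another mesenchymal SFRP, stood at 0.90, 1.93 and 2.62 CPM in APC-WT against 3.82, 2.43 and 4.89 CPM in APC-KI, and its groups overlapped. Its log2 change was 1.03, with a 95% interval of −0.01 to 2.08 (edgeR adjusted p = 0.135), and 347 of its exon bases lie across the antisense gene Gm26771, which was counted at under 1 CPM in every library (0.878 at most). Sfrp5 stood at 0.420, 0.264 and 0.355 CPM in APC-WT against 0.519, 0.478 and 0.534 CPM in APC-KI, with a log2 change of 0.55 (95% interval −0.13 to 1.23, edgeR adjusted p = 0.202). The groups of Sfrp5 did not overlap although the test was not passed.

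Stromal markers moved with the SFRP genes, and so did epithelial markers. Of the 8 epithelial markers 5 were higher in APC-KI and 0 lower (median log2 change 0.415), while over all genes tested 12.5% were higher and 7.63% lower. All 9 smooth muscle markers were higher in APC-KI and 0 lower (median log2 change 2.20), with Synm and Myh11 having the smallest p, and 3 of 10 fibroblast markers were higher and 0 lower (median 0.90), with Mfap5 and Dcn having the smallest p. The summed fibroblast markers stood at 914, 1408 and 2488 CPM in APC-WT against 2851, 3985 and 2856 CPM in APC-KI, and the summed smooth muscle markers at 176, 262 and 451 CPM in APC-WT against 938, 1183 and 1557 CPM in APC-KI. APC-WT replicate 3, the library of that group with the highest fibroblast and smooth muscle sums, also held the highest Sfrp1, Sfrp2, Sfrp4 and Frzb, and replicate 1 held the lowest of all these. The epithelial sum had the same order in APC-WT replicates 1 to 3 (7861, 8261 and 9051 CPM). Replicate 3 was also the Y-negative library of APC-WT. Stroma, epithelium and sex cannot be told apart in this order. Enteric neuron and glia markers (3 of 7 tested higher, 0 lower) summed to 4.29 to 6.51 CPM in APC-WT against 7.32 to 8.04 CPM in APC-KI, and endothelial markers (3 of 6 higher, 0 lower) to 184 to 240 and 263 to 333 CPM. Mesothelial markers overlapped between the groups (9.05 to 38.1 and 9.05 to 19.7 CPM), and of their defining genes Wt1 had 1 count in APC-WT and 4 in APC-KI. Outside the stroma, all 5 Paneth-like markers were lower (median −2.52, summed 3361 to 4022 CPM in APC-WT, 735 to 1169 CPM in APC-KI), as were all 7 mast cell markers (median −5.76, summed 130 to 865 CPM and 5.12 to 15.6 CPM), which went in the direction of Wif1, Notum and Dkk3. Of 6 B and plasma cell markers 5 were higher and 0 lower (median 3.37, summed 839 to 1307 CPM and 5781 to 14330 CPM). The part of all these cell types in the changes of the antagonists was not tested.

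Set against the fibroblast marker sum, Sfrp1 still differed between the groups, at 10.1, 10.8 and 17.0 CPM per 1000 marker CPM in APC-WT against 34.2, 44.3 and 33.1 in APC-KI. Frzb stood at 2.43, 2.77 and 3.02 in APC-WT and 4.82, 5.31 and 6.81 in APC-KI on that scale, also without overlap. Against the smooth muscle sum both overlapped: Sfrp1 stood at 52.6, 58.1 and 93.7 CPM per 1000 marker CPM in APC-WT against 104, 149 and 60.7 in APC-KI, and Frzb at 12.6, 14.9 and 16.7 in APC-WT and 14.7, 17.9 and 12.5 in APC-KI. Sfrp4 likewise was higher without overlap against the fibroblast sum and overlapped against the smooth muscle sum. Sfrp2 overlapped against the fibroblast sum and was lower in APC-KI against the smooth muscle sum (5.12, 7.37 and 5.81 against 4.08, 2.05 and 3.14). Wif1, Notum, Dkk2 and Dkk3 were lower in APC-KI without overlap against the fibroblast, smooth muscle and epithelial sums alike. Each of these sums was itself higher in APC-KI without overlap, so for genes that fell without overlap this outcome was fixed beforehand and adds nothing. These ratios are descriptions, with no test. The fibroblast sum weighs each marker by its level. Dcn and Mfap5 rose by 1.69 and 2.21 on the log2 scale, beside a median of 0.90 for the fibroblast markers. Whether Sfrp1 and Frzb stay apart when set against single markers was not tested.

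**Figure D3:**
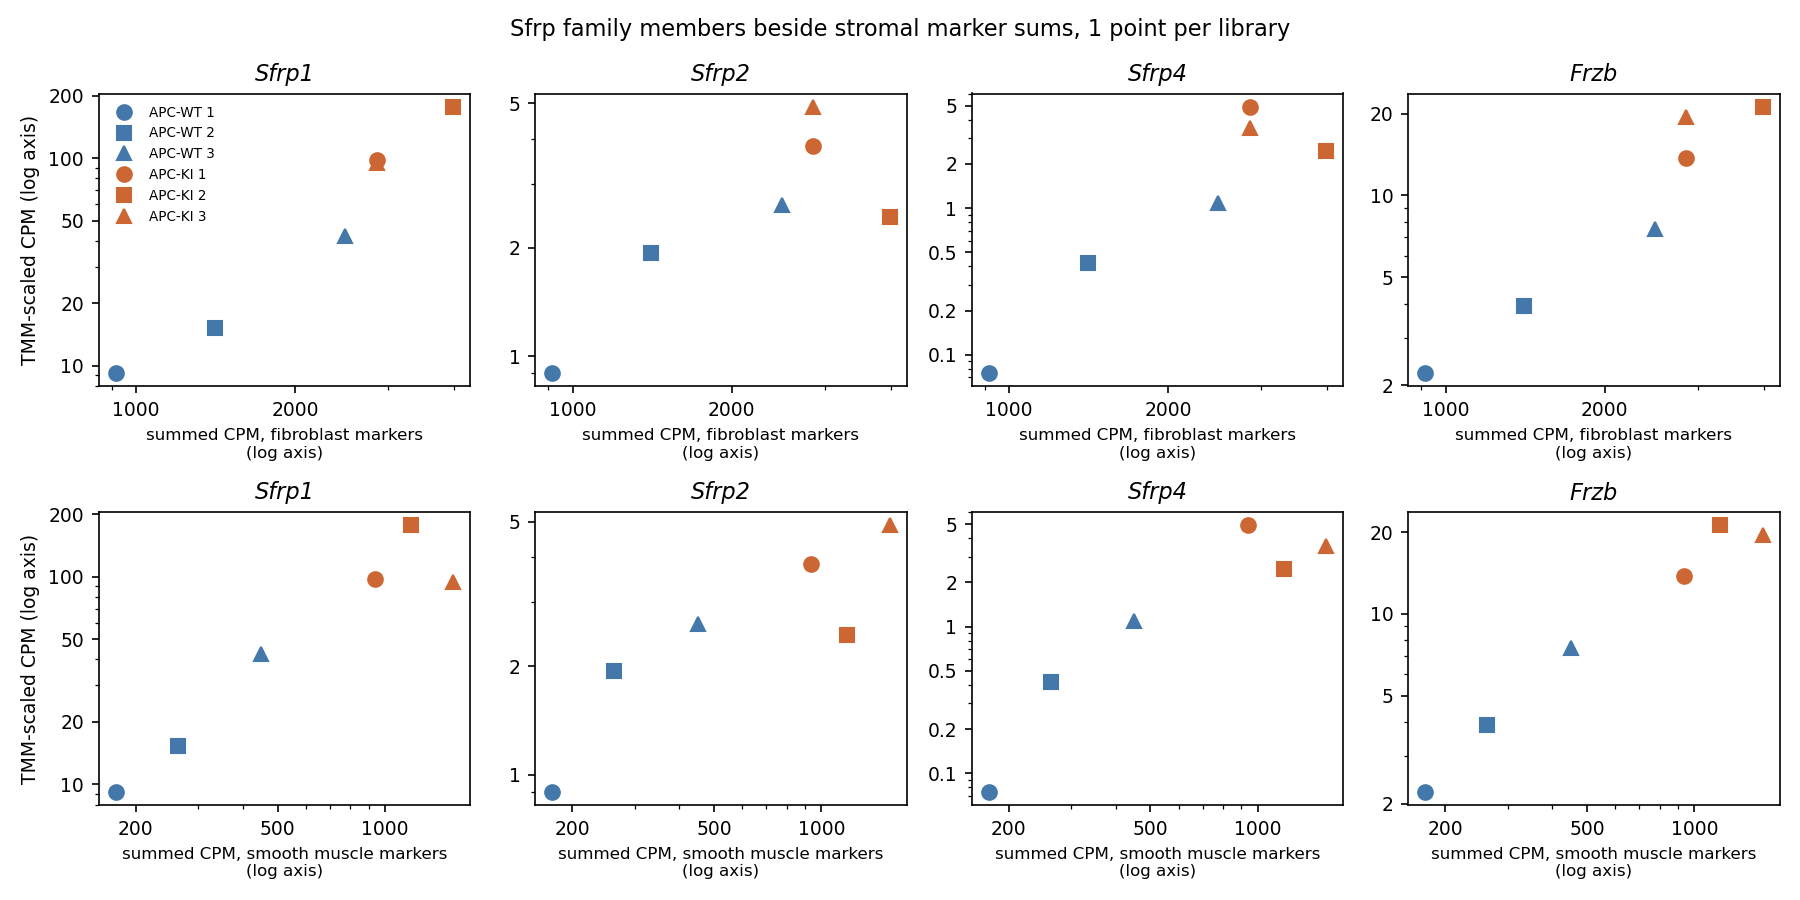
Level of Sfrp1, Sfrp2, Sfrp4 and Frzb (TMM-scaled CPM) against the summed CPM of fibroblast markers (upper row) and smooth muscle markers (lower row), 1 point per library, all axes logarithmic. In APC-WT replicate 1 is lowest and replicate 3 highest in every panel, and the APC-KI libraries lie to the right of all APC-WT libraries.

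The members were then compared with each other per length of exon (CPM per kb of exon in GENCODE M21), which allows levels of different genes to be set side by side. In APC-WT tumours Wif1 was the most abundant of the 10 genes at 289 ± 33.7 CPM per kb (SD, n = 3), followed by Notum at 167 ± 29.2. Dkk2 came next at 49.6 ± 1.41, then Dkk3 at 36.6 ± 4.91 and Sfrp1 at 5.09 ± 4.02 CPM per kb. From Wif1 to Sfrp1, each gene stood apart from the next in all 3 libraries. Frzb followed at 1.41 and Sfrp2 at 0.844 CPM per kb, with Sfrp1, Frzb and Sfrp2 overlapping from one to the next, and Sfrp5, Sfrp4 and Dkk4 lay below 0.3 CPM per kb in each APC-WT library, at means of 0.182, 0.126 and 0.051.

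In APC-KI tumours Wif1 remained the highest of the 10 genes at 69.7 ± 21.3 CPM per kb (SD, n = 3), apart from the rest. Dkk2, Sfrp1, Notum and Dkk3 came next at 32.4 ± 10.2, 28.1 ± 10.7, 26.8 ± 10.1 and 24.5 ± 1.73 CPM per kb, and neighbours in this order overlapped. Frzb at 5.60 ± 1.20 CPM per kb lay below them and above Sfrp2, Sfrp4, Sfrp5 and Dkk4. Wif1 and Notum together made up 84.8%, 82.5% and 81.1% of the summed length-scaled level of the 10 genes in APC-WT and 48.6%, 44.5% and 57.2% in APC-KI. The 4 Sfrp genes and Frzb together made up 0.555%, 1.16% and 2.6% in APC-WT and 18.7%, 27.4% and 13.4% in APC-KI. Their summed level was 3.455, 5.83 and 13.65 CPM per kb in APC-WT and 29.8, 48.9 and 31.0 CPM per kb in APC-KI. The shares moved more than these sums because the level of Wif1 and Notum fell as well. Within the 10 genes, Wif1, Notum, Dkk2 and Dkk3 thus made up 97.4% to 99.4% of the sum in APC-WT and 72.6% to 86.6% in APC-KI. Other inhibitors that act outside the cell were not part of this sum.

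**Figure D4:**
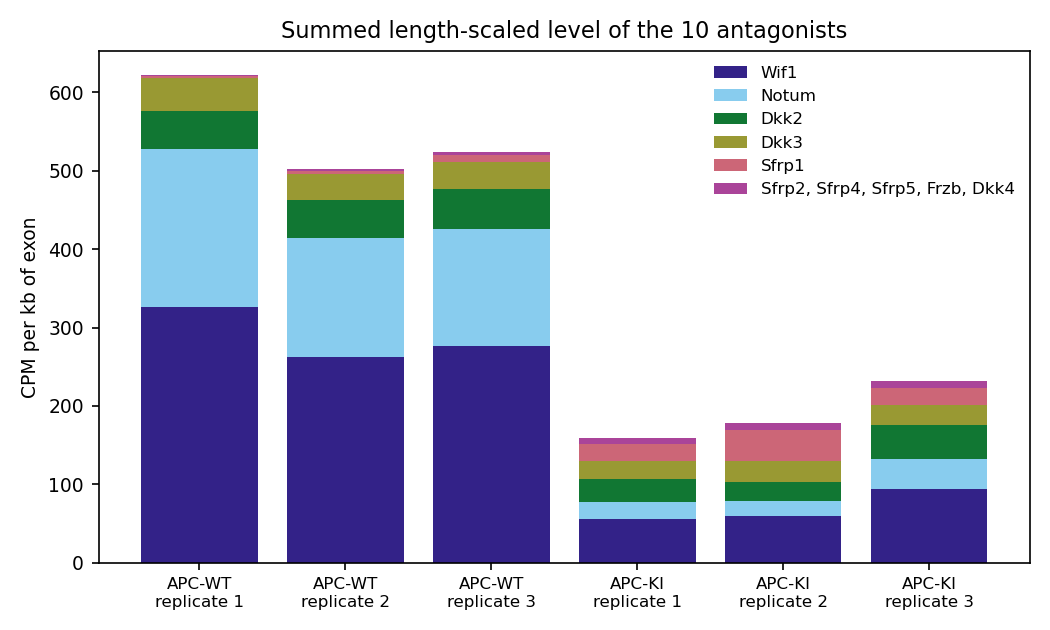
Summed level of the 10 antagonists in each library, in CPM per kb of exon, stacked by gene on an axis that starts at 0. Wif1 and Notum make up over 81% of each APC-WT bar and 44.5% to 57.2% of the APC-KI bars, and Sfrp1 becomes visible in the APC-KI bars.

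Of 10 further genes for inhibitors that act outside the cell 7 were tested, with 1 lower, 1 higher and a median log2 change of −0.39, beside 7.63% lower and 12.5% higher among all genes tested. Counts this small are given as a description. Apcdd1, a membrane glycoprotein that binds Wnt ligands and LRP5, stood at 888, 658 and 392 CPM in APC-WT against 95.9, 55.6 and 140.2 CPM in APC-KI (log2 change −2.73 ± 0.43, SE, edgeR adjusted p = 0.011), and did not pass over the Y-negative libraries (−2.01, adjusted p = 0.16), nor when Y-linked counts entered as a covariate (0.0959). Sostdc1, a secreted protein that binds LRP receptors and BMP ligands, rose at very low levels, from 0.048 ± 0.053 to 0.42 ± 0.17 CPM (SD, n = 3, edgeR adjusted p = 0.04). That call was lost without any 1 of the 6 libraries (adjusted p = 0.056 to 0.112), over the Y-negative libraries (0.134) and with the Y covariate (0.224). Dkk1 had 0 counts in all 6 libraries, which allows up to 3 counts in each, and Sost and Cer1 were too rare to be tested.

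Among the receptors that these proteins act on, 3 of 10 Frizzled genes were higher and 2 lower, with a median log2 change of −0.02. The shares over all genes tested were 12.5% higher and 7.63% lower. Fzd9 and Fzd10 fell, Fzd9 at low levels from 1.99, 1.62 and 2.94 CPM to 0.211, 0.363 and 0.409 CPM. Fzd10 went from 31.2, 26.6 and 16.2 CPM to 3.96, 3.54 and 4.47 CPM (log2 change −2.63, edgeR adjusted p = 0.00429). Fzd5 rose from 17.2, 24.4 and 24.8 CPM to 57.6, 54.7 and 50.4 CPM (log2 change 1.29, edgeR adjusted p = 0.00596). Of the 4 receptors of DKK proteins, Lrp5 fell by 0.32 (adjusted p = 0.0242) and Kremen2, which takes DKK-bound LRP6 off the cell surface, rose by 0.71 on the log2 scale (adjusted p = 0.0362), while Lrp6 (0.11) and Kremen1 (−0.22) did not pass. Fzd10 and Fzd9 were called in all 16 alternatives run and Fzd5 in 15, failing when Y-linked counts entered as a covariate (adjusted p = 0.0582). Lrp5 and Kremen2 were called in 9 and 8, and leaving out any 1 of APC-WT replicates 2 and 3 and APC-KI replicates 1 and 2, or for Kremen2 also APC-WT replicate 1, ended the call (adjusted p = 0.0508 to 0.0915 and 0.0573 to 0.117). Both were also lost over the Y-negative libraries (0.125 and 0.267) and with the Y covariate (0.0864 and 0.231).

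Of 15 Wnt ligand genes tested 4 were lower and 2 higher, with a median log2 change of −0.36 (over all genes tested 7.63% were lower and 12.5% higher). Wnt6 stood at 71.7, 50.7 and 48.7 CPM in APC-WT against 17.7, 15.1 and 28.1 CPM in APC-KI (log2 change −1.49, edgeR adjusted p = 0.016). Wnt3 fell by 2.21 (adjusted p = 0.0188) and Wnt9b by 1.72 (adjusted p = 0.0184) on the log2 scale. Wnt9b was rare, at 0.54, 0.42 and 0.34 CPM in APC-WT against 0.13, 0.11 and 0.14 CPM in APC-KI. With the replicate block Wnt3 and Wnt9b did not pass (edgeR adjusted p = 0.0532 and 0.0601). Wnt3 is a ligand of Paneth cells, and all 5 Paneth-like markers were lower here. Over APC-WT replicates 1 to 3 Wnt3 had 8.40, 3.96 and 13.5 CPM, beside Paneth-like marker sums of 4022, 3361 and 3857 CPM. Whether the fall of Wnt3 went with fewer Paneth-like cells was not tested. The 2 that rose, named after their values were seen, were Wnt2 and Wnt2b, ligands known from intestinal mesenchyme. Wnt2 was rare, at 0.06, 0.33 and 0.24 CPM in APC-WT against 0.98, 1.01 and 1.21 CPM in APC-KI. Its highest APC-WT library was replicate 2, unlike that of Sfrp1 and Frzb. Wnt2b stood at 2.37, 2.97 and 5.67 CPM in APC-WT against 11.0, 16.8 and 10.3 CPM in APC-KI (adjusted p = 0.0223), with the same order of APC-WT libraries as Sfrp1 and Frzb. Of the 7 tested genes for Wnt lipidation, export and glypicans, the surface proteins that hold Wnt ligands and NOTUM, 2 were lower and 1 higher with a median of −0.13. Gpc1 fell by 1.16 (adjusted p = 0.0147) and Gpc2 by 0.92 (adjusted p = 0.0494), and Gpc6 rose by 0.76 (adjusted p = 0.0321). Leaving out APC-KI replicate 1 ended the calls of all these ligands and glypicans, at adjusted p = 0.0636 for Wnt6, 0.0772 for Wnt3, 0.0692 for Wnt9b, 0.0805 for Wnt2, 0.063 for Wnt2b, 0.0561 for Gpc1, 0.153 for Gpc2 and 0.0759 for Gpc6. Without APC-WT replicate 2 all but Wnt6 and Wnt3 were lost as well (0.052 to 0.136), and without APC-KI replicate 2 all but Wnt6 and Gpc1 (0.0663 to 0.145), while Gpc2 also failed without APC-WT replicate 3 (0.0948), Wnt2 without APC-KI replicate 3 (0.0522) and Gpc6 without any 1 of the 6 libraries (0.051 to 0.114). Over the Y-negative libraries and with the Y covariate Wnt3 alone of these genes kept its call (0.0197 and 0.028). Wnt6 had an adjusted p of 0.163 and 0.131, Wnt9b of 0.258 and 0.169, Wnt2 of 0.0782 and 0.207, Gpc1 of 0.197 and 0.126, Gpc2 of 0.096 and 0.0945, and Gpc6 of 0.249 and 0.227. Wnt2b had 0.157 and 0.137, with a log2 change of 1.16 in both in place of 1.79.

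Feedback inhibitors at the membrane and inside the cell fell beside Wif1 and Notum, with 4 of 5 lower, 0 higher and a median log2 change of −1.16. Among all genes tested 7.63% were lower and 12.5% higher. Nkd1, which acts on Dishevelled, stood at 843, 565 and 641 CPM in APC-WT against 185, 184 and 276 CPM in APC-KI (log2 change −1.67, edgeR adjusted p = 0.0073). The ubiquitin ligases Znrf3 and Rnf43, which remove Frizzled receptors, fell by 1.16 and 0.95 (adjusted p = 0.013 and 0.0155), calls that were lost without APC-KI replicate 1 (0.0563 and 0.0649) and, for Rnf43, without APC-WT replicate 2 (0.0523). Nkd1, Znrf3 and Rnf43 had their highest APC-KI level in replicate 3, the library in which Wif1, Notum and Dkk2 were highest too. Of 12 epithelial Wnt targets 8 fell and 0 rose, with a median of −0.90, among them Lgr5, Tcf7 and Tnfrsf19, which fell by 1.02, 1.17 and 1.24 on the log2 scale. Over the 4 Y-negative libraries 0 of the feedback inhibitors and 3 of the targets were called lower.

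**Figure D5:**
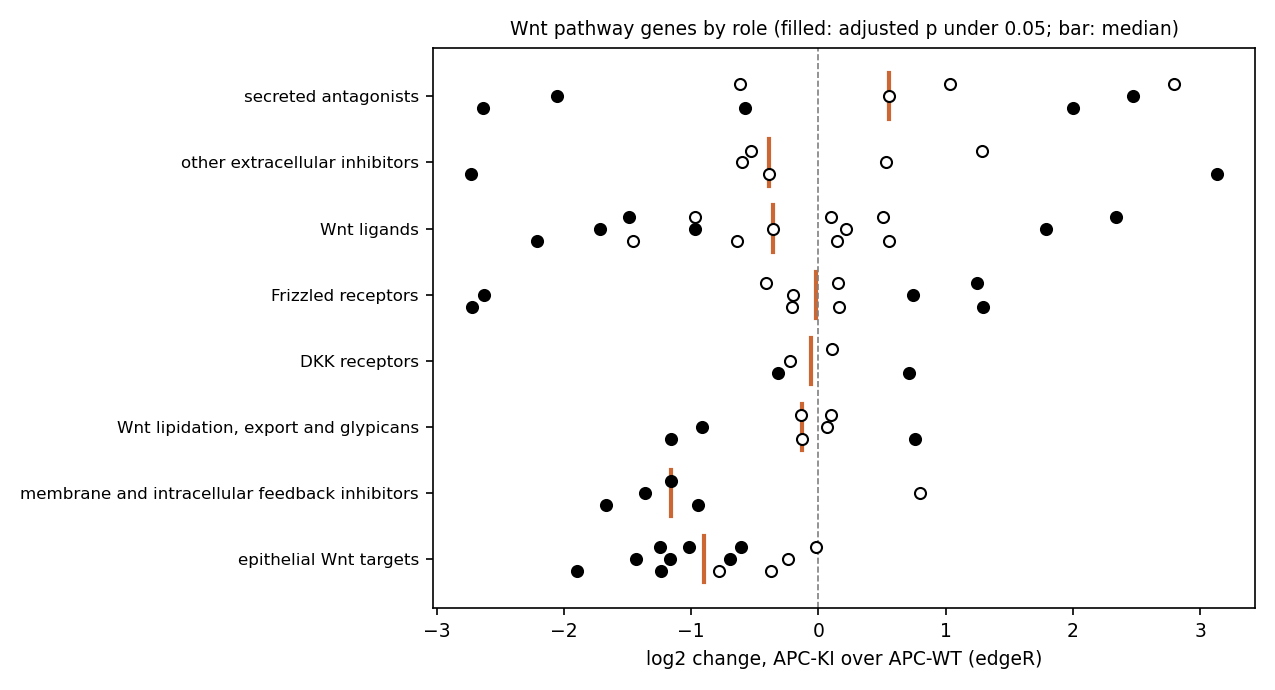
Log2 change (APC-KI over APC-WT, edgeR) of each tested gene of the Wnt pathway by role; filled points passed at an adjusted p under 0.05 and the bar is the median of the row. The secreted antagonists spread from −2.64 to 2.80, while the called feedback inhibitors and epithelial targets all lie below 0.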

How the data were processed

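RNA of 6 bulk colon tumours was sequenced, 3 APC-WT and 3 APC-KI. Libraries were stranded and mRNA-selected, per the labels' protocols. The submitters' processing notes name STAR, Trim Galore 0.6.4, cutadapt 2.5 and DESeq2 1.37.6 with the builds GRCm38 and mm10; the sources used here do not give which program counted, whether by strand, or on which annotation. The authors deposited raw counts per Ensembl gene. Symbols and exon lengths came from GENCODE M21, which named 52093 of 53700 identifiers; the versions were equal for 35 of them, so lengths and overlaps are approximate.

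Genes were kept with filterByExpr, scaled with TMM and tested with edgeR 4.0.16 in R 4.3.3 (robust glmQLFit, glmQLFTest) with group as the sole term, and 19127 genes were adjusted together by Benjamini-Hochberg with a threshold of 0.05. A positive change means higher in APC-KI. Alternatives used DESeq2 1.42.0, limma-voom (limma 3.58.1), other scalings and filters, the replicate block, Y-linked counts and each library left out. The steps were tested on simulated data. The labels number the tumours but do not say that they are separate animals beyond 3 per group, so p-values measure the spread between these samples. Libraries of a group differed beyond sampling noise.

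The members and the 16 gene lists were chosen with earlier results of these data known. All 10 members and Tcf7l2 are named; from each pathway list up to 3 tested genes with the smallest p, and from each marker list up to 2 with the smallest p or those near 0 counts, could be named, and Wnt2 and Wnt2b were added after their values were seen.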

Additional observations from a re-analysis of the deposited data

How the results depend on the processing

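No member, nor Tcf7l2 or the pathway genes refitted with them, changed direction in the 16 alternatives run, of which the stricter filter gave no value for Sfrp5, Sostdc1, Wnt2 and Wnt9b. Dkk4 was not tested. The count of members lower was 3. It was 2 with the replicate block, 2 with Y-linked counts as a covariate, and 2 to 4 on leaving out each library. Over the 4 Y-negative libraries, with 1 from APC-WT, the log2 changes were −1.99 for Wif1, −2.47 for Notum and −0.50 for Dkk3. The count of members higher was 2, and 0 with no low-count filter, 1 with the replicate block, 0 over the Y-negative libraries, 0 with those counts as a covariate, and 0 to 3 on leaving out each library (0 without APC-WT replicate 2, APC-KI replicate 1 or APC-KI replicate 2). Wif1 and Notum were called in 15 of 16 alternatives each, Dkk3 in 12, Frzb in 10 and Sfrp1 in 8.

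Over all genes 2388 were called higher and 1459 lower. The counts were 1195 and 465 with the replicate block, 178 and 152 over the Y-negative libraries, and 220 and 195 with those counts as a covariate. DESeq2 called 2230 lower and library totals alone 2844 lower and 1978 higher, a scaling under which the median log2 change over all genes went from −0.016 to −0.132. Leaving out each library gave 788 to 2542 higher and 300 to 1595 lower. The counts were lowest without APC-WT replicate 2 for higher calls and without APC-KI replicate 1 for lower calls. Same-numbered libraries did not deviate together from their group means (correlations 0.024, −0.091 and −0.235), so the numbers are not taken as pairs. The cause of these losses was not tested. Dkk4 had 12 counts over the APC-WT and 2 over the APC-KI libraries and was not tested, and Sfrp5 and Sfrp4 had 62 and 87 counts over the APC-WT libraries.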
